A study of Mus musculus with 16 samples.

Results

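The genes described here are 10 genes known from neutrophils and their granules, S100a8, S100a9, Lcn2, Ngp, Camp, Ltf, Mpo, Elane, Csf3r and Cxcr2, measured in the bladder body of mature and aged mice. Neutrophils store antimicrobial proteins in granules that are filled in a set order while the cell matures in the bone marrow. Primary granules hold myeloperoxidase (Mpo) and neutrophil elastase (Elane), and secondary granules hold lipocalin-2 (Lcn2), neutrophilic granule protein (Ngp), cathelicidin (Camp) and lactoferrin (Ltf). S100a8 and S100a9 encode the chains of calprotectin, a calcium- and metal-binding protein that fills the cytosol of neutrophils and is also made by monocytes and by inflamed epithelium, and Lcn2 is made by epithelial cells as well. Csf3r encodes the receptor for granulocyte colony-stimulating factor, and Cxcr2 the chemokine receptor that guides neutrophils into tissue. In the bladder these cells are known mainly from infection.

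The members were given as a list of symbols, selected on earlier results of these same arrays, among them the AGED against MAT difference of S100a9 in both sexes. The age changes of single members are therefore a description with standard errors and no p-value, and counts of members past a threshold stand beside the share of all genes that passed it, with nothing read from them. All 10 members were found by accession, on 11 probes, since Camp had 2. Of the 26781 genes tested, 8 were members, because Ngp and Ltf did not pass the filter on dim probes.

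Total RNA of 16 C57BL/6 bladder bodies was hybridized to 1-colour Agilent arrays, and each of the 4 groups (MAT male, AGED male, MAT female, AGED female) had 4 arrays. The MAT groups were aged 12 months and the AGED groups 27 to 30 months, and no treatment is given for any group. Each sex had a slide of its own, with MAT mice in the first row and AGED mice in the second, so that age and row, and sex and slide, cannot be told apart. Values are the log2 processed signal less the 75th percentile of the array, so that 0 is the level of that percentile.

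Between 52.3% and 68.2% of the probes were well above background on an array, with the lowest share on AGED male replicate 1. All 6 urothelial and all 4 smooth muscle genes listed as tissue markers passed the filter on dim probes. The neutrophil markers were not present as a set. Ngp was well above background on 0 of the 16 arrays and Ltf on 2, and of other neutrophil genes Mmp8, Cd177 and Cxcr1 were well above background on 0 arrays, while Ly6g had no probe matched here. Mpo, Elane, Csf3r, Camp, Lcn2, S100a8 and S100a9 were well above background on all 16. Of the 8 genes tested from the mature neutrophil list, Retnlg, Stfa2, Stfa3, Padi4, Il1r2 and G0s2 were well above background on all 4 arrays of every group. Wfdc21 was so on 0 MAT male, 4 AGED male, 4 MAT female and 2 AGED female arrays. Mmp25 was so on 0 male arrays of either age and on 3 arrays of each female group. Detection was thus mixed, and the 10 genes are called here by their own names. Whether they form 1 neutrophil programme was not tested. In bulk tissue, fewer cells of a type and less RNA per cell cannot be told apart.

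The 3 members with the highest age changes in males were S100a9, S100a8 and Lcn2. Limma called these 3 of 8 tested members higher in AGED than in MAT males and 0 lower (a call needs 2-fold or more with an adjusted p below 0.05), where 0.276% of all genes tested were called higher and 0.571% lower. In females 0 of 8 members were called, where 0.175% of all genes were called higher and 0.0112% lower, and 6 had an unadjusted p under 0.05 (4 higher and 2 lower), a threshold that 4.67% of all genes passed upward and 5.88% downward. Without MAT male replicate 3 or MAT male replicate 4, S100a9 alone of the members was called in males, where 122 and 227 of all genes were. With the males fitted alone 0 members were called, where 14 of all genes were. The 4 AGED arrays lay above the 4 MAT arrays for 4 of 8 members in males, where 3.91% of all genes did so, and for 4 of 8 in females, where 5.02% did. They lay below them for 0 of 8 in males (4.06% of all genes) and for 1, Elane, in females (5.78%). Since the members were picked with this contrast known, nothing is read from these counts.

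**Figure D1:**
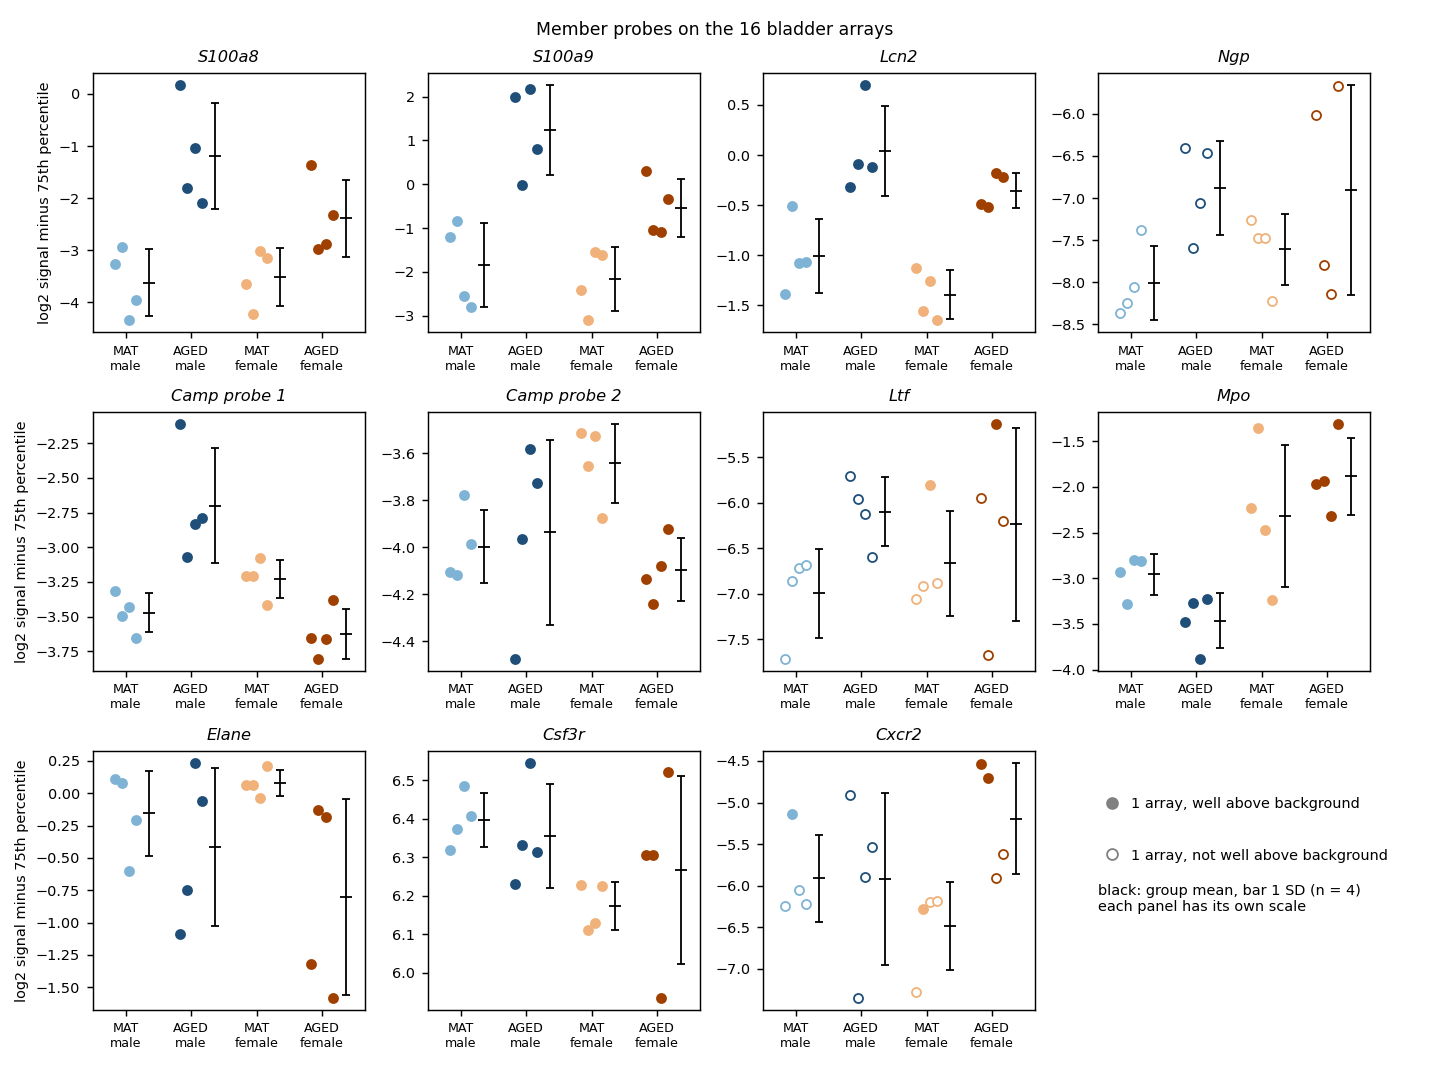
Log2 signal less the 75th percentile of the array (y axis, own scale in each panel) of the 11 member probes on the 16 arrays, by group (x axis). Filled points were well above background, open points were not, and black bars are the group mean with 1 SD (n = 4). S100a8, S100a9 and Lcn2 were higher on every AGED array than on every MAT array of the same sex, while all points of Ngp are open.

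S100a9 was higher on all AGED arrays than on the MAT arrays of the same sex. On the MAT male arrays its log2 signal was -1.20, -0.85, -2.54 and -2.79, and on the AGED male arrays it was 1.98, -0.01, 2.17 and 0.81. The groups did not overlap, although the MAT males fell into a higher and a lower pair of arrays. The study lists this gene as lower in AGED bladders, whereas every direction here follows the labels deposited with the arrays. Chil3 and all the other genes in the study's lists of largest age changes that were tested here also had the opposite sign here, so the discrepancy is not that of 1 gene. If the MAT and AGED labels of the arrays were exchanged, the sign of every age change given here would turn, and these files alone cannot settle it. The log2 change in males was 3.08 (SE 0.56, n = 4 per group, 95% interval 1.87 to 4.29). In females the MAT arrays read -2.41, -3.10, -1.56 and -1.63, and the AGED arrays 0.31, -1.05, -1.09 and -0.35. The female groups did not overlap either, and their nearest arrays read -1.56 and -1.09. The log2 change in females was 1.63 (SE 0.56, 95% interval 0.42 to 2.84).

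S100a8, whose product pairs with that of S100a9, followed it closely. Its log2 signal was -3.27, -2.93, -4.34 and -3.95 on the MAT male arrays and 0.17, -1.80, -1.03 and -2.09 on the AGED male arrays. AGED male replicate 1 had the highest value of all 16 arrays, and the groups did not overlap. The log2 change in males was 2.43 (SE 0.49, 95% interval 1.37 to 3.50). MAT females read -3.64, -4.23, -3.01 and -3.16 and AGED females -1.36, -2.97, -2.88 and -2.33, a log2 change of 1.13 (SE 0.49, 95% interval 0.06 to 2.20). Only a narrow gap separated the female groups, between -3.01 and -2.97. AGED male replicate 1 was also the dimmest array, and without it the male changes were 1.98 for S100a8 and 2.84 for S100a9. With normexp background correction the male change of S100a8 was smaller, at 1.33, while that of S100a9 was 2.94.

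Across the 16 arrays S100a8 and S100a9 had a Pearson correlation of 0.952, and of 0.859 after each group mean was removed. These are descriptions over arrays that share groups, slides and scaling. Lcn2 and S100a9 had a correlation of 0.807 over the 16 arrays and of 0.261 with the group means removed, so that they went together much less closely within groups than S100a8 and S100a9 did.

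**Figure D2:**
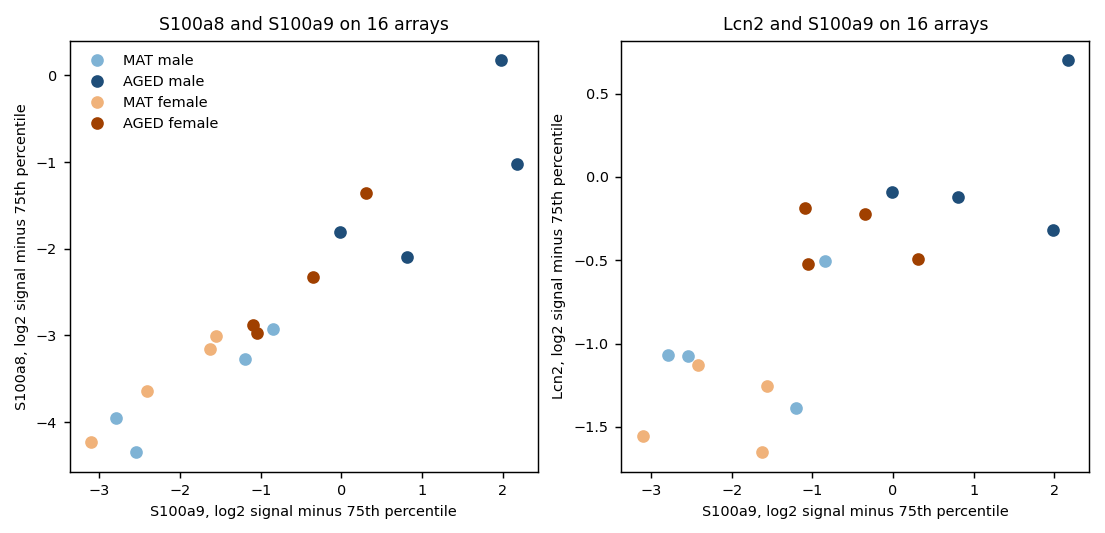
S100a8 (left) and Lcn2 (right) against S100a9 on each of the 16 arrays, all as log2 signal less the 75th percentile of the array, with 1 point per array coloured by group. The points of S100a8 lie along 1 line within and between groups (r = 0.952), while those of Lcn2 are more scattered within a group (r = 0.261 with the group means removed) and separate AGED from MAT arrays within each sex only.

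S100a8 and S100a9 are next to each other on chromosome 3, with no other protein-coding gene between them. The sequences before the annotated starts of these 2 genes and of Lcn2, the members with the largest age changes in males, are shown because granulocyte genes are known targets of C/EBP factors. They run 5′ to 3′ from 250 bases before the start to 20 bases after it, on the gene's own strand, from RefSeq's promoter table (GRCm38.p6). Capitals mark matches, on either strand, to the C/EBP motif TTNNGNAA and the TATA box TATAAA. S100a8 lies at chr3:90668821-90669090 (+), S100a9 at chr3:90695702-90695971 (-) and Lcn2 at chr2:32387720-32387989 (-).
S100a8: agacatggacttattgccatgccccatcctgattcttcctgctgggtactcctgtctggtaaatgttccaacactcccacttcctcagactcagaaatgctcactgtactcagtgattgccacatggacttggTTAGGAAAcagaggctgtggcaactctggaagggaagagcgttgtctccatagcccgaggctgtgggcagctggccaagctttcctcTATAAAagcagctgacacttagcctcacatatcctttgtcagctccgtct
S100a9: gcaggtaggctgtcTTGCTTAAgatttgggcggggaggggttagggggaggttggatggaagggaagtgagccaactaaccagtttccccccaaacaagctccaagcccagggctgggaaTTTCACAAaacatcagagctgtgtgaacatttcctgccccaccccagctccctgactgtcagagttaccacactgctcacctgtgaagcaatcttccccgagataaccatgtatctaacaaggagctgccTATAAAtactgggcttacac
Lcn2: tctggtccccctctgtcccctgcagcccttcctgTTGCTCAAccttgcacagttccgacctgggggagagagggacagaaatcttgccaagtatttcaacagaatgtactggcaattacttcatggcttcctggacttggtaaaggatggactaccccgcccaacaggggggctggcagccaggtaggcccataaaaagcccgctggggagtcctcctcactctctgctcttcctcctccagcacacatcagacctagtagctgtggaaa

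Positions are counted from the annotated start, which is 1, and bases before it are negative. In S100a8 the C/EBP match began at position -117 and the TATA box at -30. S100a9 held C/EBP matches that began at -236 and -130, and a TATA box at the annotated start itself. Lcn2 held 1 C/EBP match, at -216. Over windows of 300 bases, 5 of the 10 members held a C/EBP match (S100a8, S100a9, Lcn2, Ngp and Ltf), as did 40.7% of all 32851 promoters in the table. A TATA box was found in 2 of 10 members and 13.6% of promoters, the PU.1 motif GAGGAA in 7 of 10 and 28.3%, and the NF-kB motif in 6 of 10 and 19.5%. None of the matches shown overlapped another motif searched. A match describes the letters and is not a measured binding site.

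Lcn2, which binds bacterial siderophores, had nearly the same age change in both sexes. Its log2 signal was -1.38, -0.51, -1.08 and -1.07 on the MAT male arrays and -0.32, -0.09, 0.70 and -0.12 on the AGED male arrays. The nearest arrays of the groups were MAT male replicate 2 and AGED male replicate 1, and the groups did not overlap. The log2 change was 1.05 (SE 0.22, 95% interval 0.56 to 1.54). MAT female arrays read -1.13, -1.55, -1.25 and -1.65 and AGED female arrays -0.49, -0.52, -0.18 and -0.22, so that the female groups lay farther apart than the male ones. The log2 change in females was 1.04 (SE 0.22, 95% interval 0.56 to 1.53). The male call of Lcn2 stood close to the 2-fold limit, and scaling by the median in place of the 75th percentile gave a change of 0.99, which was not called. Its call was also lost without MAT male replicate 1, 3 or 4 or AGED male replicate 3.

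Camp, the precursor of the antimicrobial peptide cathelicidin, had age changes of opposite sign in males and females on its brighter probe, neither of them called. On the MAT male arrays it read -3.32, -3.49, -3.43 and -3.65, and on the AGED male arrays -2.11, -3.07, -2.83 and -2.79. All AGED male arrays were above all MAT male arrays, and the log2 change was 0.77 (SE 0.18), which is under the 2-fold limit. In females the MAT arrays read -3.21, -3.21, -3.08 and -3.41 and the AGED arrays -3.66, -3.80, -3.66 and -3.38, a log2 change of -0.40 (SE 0.18) with overlapping groups. The other probe of Camp disagreed in males, where its log2 change was 0.06 (SE 0.17), and had a change of -0.45 (SE 0.17) in females. With normexp the male change of the brighter probe was 0.35.

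Ngp and Ltf, the remaining secondary granule genes, were at background. The processed signal of Ngp was between 3.69 and 21.1 on the 16 arrays, and that of Ltf between 5.81 and 60.8. Ltf was well above background on MAT female replicate 3 and AGED female replicate 3 and on no male array. No fold is given for either gene.

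The primary granule genes Mpo, which makes hypochlorous acid, and Elane, a serine protease, were measured on every array and not called in either sex. Mpo read -2.93, -3.29, -2.79 and -2.82 on the MAT male arrays and -3.48, -3.27, -3.88 and -3.22 on the AGED male arrays, a log2 change of -0.51 (SE 0.32), which was -0.06 with normexp. In MAT females it read -2.23, -1.35, -2.47 and -3.23, and in AGED females -1.97, -1.94, -2.32 and -1.31, a change of 0.43 (SE 0.32). Both pairs of groups overlapped, and MAT females had the widest spread. Elane read between -0.60 and 0.11 on the MAT male arrays and between -1.09 and 0.24 on the AGED male arrays, a change of -0.26 (SE 0.34). In females Elane read 0.07, 0.06, -0.03 and 0.21 on the MAT arrays and -1.32, -0.13, -0.18 and -1.58 on the AGED arrays. All AGED females were below all MAT females, by a narrow gap between -0.13 and -0.03. The AGED females split into a pair near the MAT level and a pair well below it, and most of the change of -0.88 (SE 0.34) came from the lower pair, AGED female replicates 1 and 4.

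Of the receptor genes, Csf3r had a steady and very bright probe and Cxcr2 a probe near background. The processed signal of Csf3r was between 50183 and 130365 on all 16 arrays, and its log2 signal between 5.93 and 6.55. Whether a probe this bright in bladder measures Csf3r alone was not tested, as probe sequences were not used here, so its values are those of the probe. Its log2 change was -0.04 (SE 0.12, 95% interval -0.31 to 0.23) in males and 0.09 (SE 0.12, 95% interval -0.17 to 0.36) in females, the narrowest intervals among the members. These signs are not fixed: with normexp background correction the male change was 0.11 and with quantile normalization the female change was -0.003. Cxcr2 was well above background on 1 MAT male, 0 AGED male, 1 MAT female and 2 AGED female arrays. It read -7.28, -6.27, -6.20 and -6.18 in MAT females and -4.54, -4.71, -5.91 and -5.62 in AGED females. The female change was 1.29 (SE 0.47) and the male change -0.01 (SE 0.47), both from signals that mostly were not well above background, and the male sign turned with a floor on low signals (0.31) and with normexp (0.22), which also lowered the female change to 0.36.

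**Figure D3:**
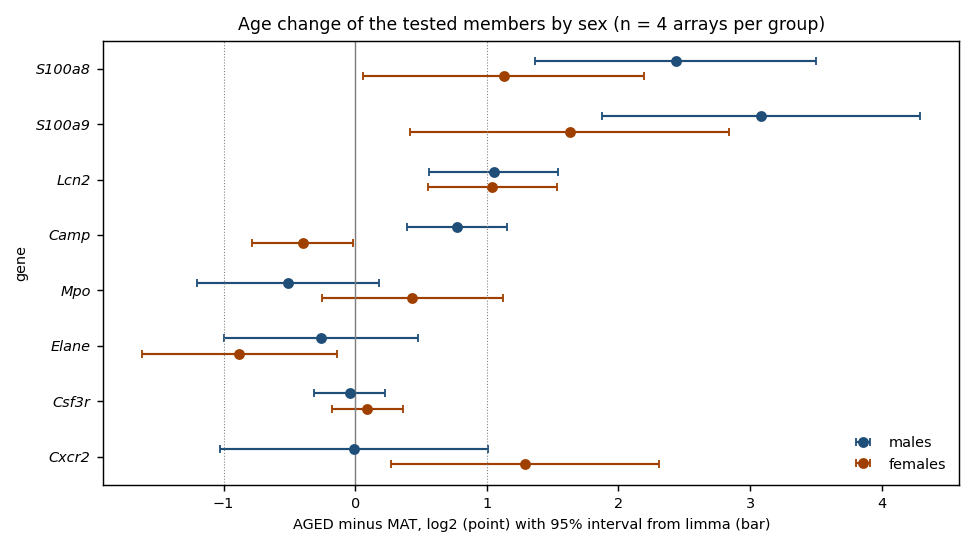
AGED minus MAT log2 change of the 8 tested members (points) with its 95% interval (bars), in males and females with n = 4 arrays per group, and dotted lines at 2-fold. The intervals use limma's standard error with the 12 residual degrees of freedom. S100a8, S100a9 and Lcn2 are above 0 in both sexes, Camp lies on opposite sides in males (0.77) and females (-0.40), and Csf3r is at 0 with the shortest bars.

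Whether the age change differed between the sexes was examined by the difference of the male and female changes. It was 1.46 (SE 0.79) for S100a9, 1.31 (SE 0.69) for S100a8, 0.01 (SE 0.32) for Lcn2, 1.17 (SE 0.25) for Camp, -0.94 (SE 0.45) for Mpo and -1.30 (SE 0.66) for Cxcr2. Limma called 0 of the 8 members, where 0.149% of all genes were called, and 1 (Camp) had an unadjusted p under 0.05, as did 9.88% of all genes. With array weights, or without AGED male replicate 1 or AGED male replicate 2, Camp was called. On its other probe the difference of Camp was 0.51 (SE 0.24). The larger male changes of S100a8 and S100a9 were thus not shown to differ from the female ones.

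Males and females were also compared within each age. The choice of members did not use this contrast, but it used all 16 of the same arrays. The p-values given here are therefore a description too. In MAT mice 0 of 8 members were called (0.157% of all genes, in either direction), 0 had an unadjusted p under 0.05 (14.1% of all genes did), and the largest difference was that of Mpo, at -0.64 (SE 0.32, adjusted p = 0.389 from limma). In AGED mice 0 of 8 members were called higher in males (1.22% of all genes) and 1 lower (1.88%). That member was Mpo, which was below every AGED female array on all 4 AGED male arrays, with a difference of -1.58 (SE 0.32, adjusted p = 0.00845 from limma). With normexp background correction the difference of Mpo was -0.83 and was not called, and with array weights its call was lost too. Camp was higher in AGED males by 0.93 (SE 0.18, adjusted p = 0.00672 from limma), under the 2-fold limit, while its other probe gave 0.16 (SE 0.17), and the brighter probe was called without AGED male replicate 2 or AGED female replicate 4. S100a9 was higher in AGED males by 1.78 (SE 0.56, adjusted p = 0.0569 from limma), with overlapping groups, and was called without AGED male replicate 2 or AGED female replicate 1.

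Other genes of the neutrophil pathway were taken from a list of 58 genes by role, of which 47 were tested. Like the members, this list and the lists below were chosen with earlier results of these data known. Their counts, medians and p-values are therefore a description and not a test of the lists. In males 1 of 47 was called higher and 0 lower, with a median log2 change of 0.21 against 0.001 over all genes tested. In females 0 of 47 were called, with a median of 0.25 against -0.003. At an unadjusted p under 0.05 limma had 15 genes of the list in males, 12 upward and 3 downward, where 7.82% of all genes passed upward and 8.49% downward. In females it had 9, 7 upward and 2 downward, where 4.67% and 5.88% did. The called gene was Fpr2, a receptor for formylated bacterial peptides. It read -4.83, -3.84, -5.15 and -4.21 on the MAT male arrays and -0.74, -3.06, -2.68 and -2.69 on the AGED male arrays, and the groups did not overlap. Its log2 change was 2.21 (SE 0.48, adjusted p = 0.0316 from limma) in males and 1.68 (SE 0.48, adjusted p = 0.218) in females. Without MAT male replicate 1 or MAT male replicate 3, 0 genes of the list were called in males, and 3 were without MAT male replicate 4 or AGED male replicate 2 and 2 without AGED male replicate 4. In females 2 were called when AGED male replicate 1, which adds to the common spread, was left out. Over all genes the male counts in these runs were 152, 122, 227, 380 and 234, in the order named, and the female count was 127.

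Of the granule genes on that list none was called in either sex. The primary granule proteases Prtn3, which lies next to Elane in the genome, and Ctsg had male changes of -0.04 (SE 0.44) and -0.12 (SE 0.46) and female changes of -0.69 (SE 0.44) and 0.28 (SE 0.46). Of the secondary and tertiary granule genes 0 of 6 tested were called in either sex, and Mmp9, a gelatinase, had changes of -0.01 (SE 0.41) in males and -0.46 (SE 0.41) in females. Of the 8 mature neutrophil genes tested 0 were called, and 5 had a change above 0 in males and 4 in females. Retnlg, a resistin-like gene of this list, had similar changes of 1.38 (SE 0.53) in males and 1.29 (SE 0.53) in females. Padi4, the brightest of the list, was lower on all AGED than on all MAT male arrays, with means of 1.43 and 2.54. The list's sum was at most 6.32 times the 75th percentile on the AGED male arrays and at least 7.44 on the MAT male arrays. In females the sum was 5.53 to 7.41 in AGED and 5.67 to 6.30 in MAT mice. Among the genes that recruit neutrophils, Csf3, Cxcl2, Cxcl3 and Il17a did not pass the filter, with Csf3 well above background on 2 arrays, Cxcl2 on 3, and Cxcl3 and Il17a on 0. Cxcl1, a ligand of Cxcr2, had changes of 0.94 (SE 1.10) in males and 1.31 (SE 1.10) in females. Cxcl5, another such ligand, had a male change of 3.14 (SE 1.35, adjusted p = 0.266 from limma), from a probe well above background on 2 of 4 AGED and 1 of 4 MAT arrays, and a female change of 0.45 (SE 1.35). On the AGED male arrays Cxcl5 read -4.87, -6.11, 0.50 and -3.46, and without AGED male replicate 3 its male change was 1.81. Of the 11 neutrophil receptor genes tested, 10 had a change above 0 in males and 9 in females, with medians of 1.15 and 1.04, and only Fpr2 in males was called. Without AGED male replicate 1, whose summed receptor signal was 20.4 times the 75th percentile against 6.17 to 9.81 on the other AGED males, the male median was 0.48 and 9 of the 11 changes were above 0. None of the 3 receptors of S100 proteins and lipocalin or the 6 granulocyte transcription factors was called.

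**Figure D4:**
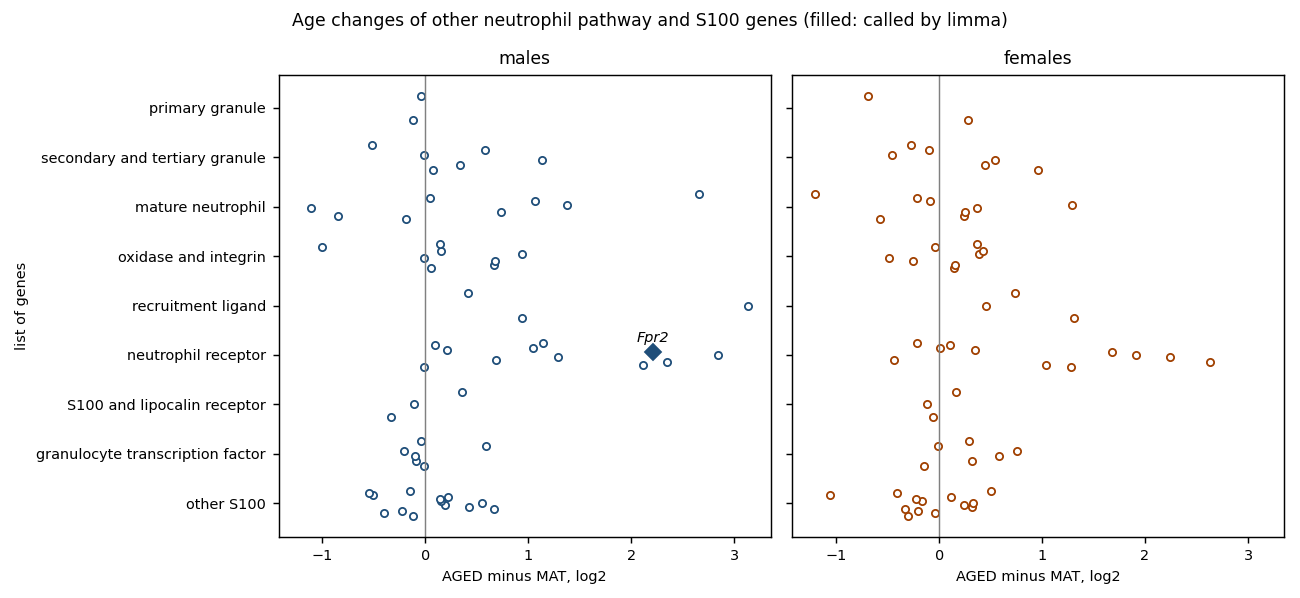
AGED minus MAT log2 change of each tested gene of the neutrophil pathway and other S100 lists (1 point per gene), by role, in males (left) and females (right). The filled diamond is Fpr2 in males (2.21), the one gene called by limma, and the point farthest to the right is the ligand gene Cxcl5 in males (3.14) and the receptor gene Clec4e in females (2.63).

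The other S100 genes had smaller age changes than S100a8 and S100a9 in males, a difference that was not tested. Of 14 such genes 13 were tested, and 0 were called in males and 0 in females. In males 4 (3 higher and 1 lower) had an unadjusted p under 0.05 from limma, where 7.82% of all genes passed upward and 8.49% downward. In females 1 (lower) did, where 4.67% and 5.88% did. In males S100a3, S100a13 and S100a14 were higher on all AGED than on all MAT arrays, which makes 3 of 13, and 0 were lower (3.91% and 4.06% of all genes). In females 1 was higher and 1 lower in this way (5.02% and 5.78%). The median log2 change of the 13 genes was 0.15 in males and -0.17 in females. S100a4, found in fibroblasts and immune cells, changed by 0.15 (SE 0.37) in males and by -0.17 (SE 0.37) in females. S100a6 changed by 0.22 (SE 0.18) and by 0.11 (SE 0.18). S100a13, picked out after its values were seen, had a male change of 0.67 (SE 0.16, adjusted p = 0.0465 from limma), which is under the 2-fold limit, and a female change of -0.33 (SE 0.16).

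Markers of other cells that could make S100a8, S100a9 or Lcn2 were summed on each array, as multiples of the 75th percentile. The macrophage list (7 of 8 genes tested, 0 called) was 79.9 to 160 in AGED males against 72.4 to 88.1 in MAT males, and 62.0 to 112 in AGED females against 68.7 to 78.6 in MAT females. The monocyte list (3 of 4 tested) had 1 gene called higher in both sexes, Chil3, a gene the study lists as lower. The female call of Chil3 was lost without MAT female replicate 1, 2 or 4 or AGED female replicate 2 or 4. The sum of the list was 19.6 to 35.1 in AGED against 11.9 to 15.8 in MAT males, and 11.9 to 22.8 against 9.54 to 12.6 in females. Chil3 is part of that sum, and its log2 signal was 2.17 to 3.86 in AGED and -3.05 to -2.80 in MAT males. For the other genes summed, F13a1 and Ccr2, the male groups overlapped. Ccr2 read -0.50, -2.10, -3.40 and -0.45 in AGED males and -1.19 to -0.76 in MAT males. AGED male replicate 1, which had the highest S100a8 value, also had the highest macrophage, monocyte and T cell sums of the AGED males. Among the AGED males S100a9 read 1.98 on that array and 2.17, its highest value, on replicate 3. Lcn2 was highest on AGED male replicate 3, at 0.70. The sum of S100a8 and S100a9 was highest on AGED male replicate 1, at 5.07. AGED male replicate 3 had the lowest macrophage, monocyte and T cell sums of the AGED males (79.9, 19.6 and 2.51). Its monocyte sum was above those of all MAT males, and its macrophage and T cell sums were within the MAT male range. Stressed or squamous epithelium (5 of 8 tested, 0 called) summed to 77.1 to 115 in AGED and 75.9 to 92.3 in MAT males, and to 58.0 to 89.8 and 53.5 to 79.7 in females. Nearly all of that sum was Sprr1a, at a log2 signal of 5.73 to 6.84, while the other genes tested were below 0 on every array. Of the 5 changes 2 were above 0 in males and 4 in females. Krt6a and Sprr2d of that list did not pass the filter. Urothelial genes (6 of 6 tested, 0 called) summed to 469 to 574 in AGED and 477 to 577 in MAT males, and to 376 to 500 and 415 to 466 in females. Red blood cell genes (6 of 6 tested, 0 called), a measure of blood left in the tissue, summed to 94.5 to 137 in AGED and 73.5 to 251 in MAT males, and to 87.3 to 193 and 91.1 to 212 in females. T cell genes (5 of 6 tested) summed to 2.51 to 9.22 in AGED and 2.36 to 2.87 in MAT males, and to 2.28 to 5.02 and 3.40 to 4.41 in females. B and plasma cell genes (5 of 5 tested) summed to 1.12 to 10.9 in AGED and 0.546 to 6.78 in MAT males, with a median change of 1.14, and to 3.47 to 25.9 and 12.6 to 39.9 in females, with a median change of -0.99. Of these, mast cell, platelet and smooth muscle genes 0 were called in either sex. None of the 8 male accessory gland genes passed the filter. The part of these cells in the changes of S100a8, S100a9 and Lcn2 was not tested.

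The genes whose values followed the mean of S100a8 and S100a9 most closely over the 16 arrays, among 15754 genes with a symbol, were Gpnmb (r = 0.900), Ube2e1 (0.889), Mtmr2 (0.877), Ern1 (0.876) and Cers6 (0.874). None of them was called with age in either sex, and the largest of their male changes was that of Ern1, at 0.89 (SE 0.24). After group means were removed, the closest were Mcmbp (r = 0.886), Spag9 (0.850), Mzt1 (0.840), Copg2 (0.839) and Cbll1 (0.838). No gene was in both sets. These correlations describe arrays that share slides and scaling. Over the 16 arrays none of the first set reached the correlation of S100a8 with S100a9, which was 0.952. With group means removed that pair had a correlation of 0.859, and Mcmbp exceeded it. The measures also differ, since the listed genes were set against the mean of S100a8 and S100a9.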

How the data were processed

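The authors extracted the 16 arrays with Agilent Feature Extraction (version 10.7.3.1 per the file headers) and deposited each spot's processed signal, a background-subtracted intensity, with its flags. A log2 table that the authors deposited beside them, checked against the scanner files, held the same values scaled per array and centred on each probe's median, with correlations of 0.9999 to 1.0000 and column medians between -0.12 and 0.29.

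Here, log2 processed signals were taken, the 75th percentile of each array's 62976 spots without controls was subtracted, outlier spots were left out (399 probe values) and replicate spots averaged. No spot was saturated. Accessions were named through RefSeq's gene table, which gave names to 26582 of 55681 probes. Probes well above background on at least 4 of 16 arrays were kept (36972 probes, 26781 genes), and each gene was represented by its brightest kept probe. A probe's level was not set against that of another. A group-means model in limma 3.58.1 (R 4.3.3) took in the 16 arrays together and left 12 residual degrees of freedom, with Benjamini-Hochberg adjustment over all genes. A call needed 2-fold or more and an adjusted p below 0.05 (for the difference of age changes, the p alone). Each array is 1 bladder, so p-values measure the spread between mice as arrayed, and precision is limited by how many arrays there are.

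The members and gene lists were chosen with earlier results of these data known. The named genes were the members, pathway and other S100 genes called in either sex (at most 8 of each), 13 further pathway and S100 genes, and the 5 genes most like the mean of S100a8 and S100a9 by each of 2 correlations. Cd177, Cxcl3, Il17a, Krt6a, Sprr2d, Sprr1a, S100a3, S100a13, S100a14, Clec4e, Padi4, Stfa2, Stfa3, Il1r2, G0s2, Wfdc21, Mmp25, F13a1 and Ccr2 were named after their values were seen. On simulated male arrays (26526 genes) limma called 74 of 100 genes given a log2 change of 1.5 and 96 of 100 given 2.5, while 0 had the wrong sign and 9 calls fell on genes with no change. The simulated noise was normal and independent, with the same spread for a gene in every group. The rates therefore check the method and need not hold for the real arrays. Alternatives covered scaling, background correction, the deposited table, filters, probes, tests, array weights, a variance trend, the replicate block and leaving out each array. The dimmer Camp probe, and leaving out each array for Cxcl5 and the receptor median, were added after the data were seen, and normexp used the median spot signal. Promoters were searched with Python.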

Additional observations from a re-analysis of the deposited data

Results flagged for a closer look

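Dixon's test within the groups of 4 arrays marked 3 of the 44 groups of member values (6.82%), where chance marks about 1 in 20. All 3 were signals near background. Ltf was low on MAT male replicate 1 (gap over range 0.834), at -7.72 against -6.86 to -6.68 on the other MAT male arrays. Ltf was high on MAT female replicate 3 (0.854), at -5.81 against -7.06 to -6.88 on the other MAT females, and that array was the one MAT female array with Ltf well above background. Cxcr2 was low on MAT female replicate 1 (0.917), at -7.28 against -6.27 to -6.18. Why these arrays stood apart was not tested.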

How the results depend on the processing

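Arrays near background limit Ngp, Ltf and Cxcr2, and 4 arrays a group limit all counts. The age call count of members in males (3) was 0 by the methods' t-test after adjustment and with the males fitted alone, 4 with no fold limit (Camp added), and 1 to 3 when 1 array was left out. Over all 26781 genes tested the male count was 227. It was 0 by the adjusted t-test, 14 with the males fitted alone and 122 to 380 with 1 array left out. The adjusted t-test thus says nothing of the members. No count over all genes was made with no fold limit. The female count (0) was 3 by the methods' t-test without adjustment (S100a9, Lcn2 and Cxcr2) and 0 to 1 with 1 array left out, where Lcn2 was called without AGED male replicate 1 or 3. Over all genes the female count was 50, against 393 by that t-test and 1 to 127 with 1 array left out. The count for the difference of age changes (0) was 1 with array weights and 0 to 1 with 1 array left out. Over all genes that count was 40, against 292 with array weights and 6 to 278 with 1 array left out. The sex count in MAT mice was 0 in every setting. In AGED mice (1) it was 2 by the methods' t-test without adjustment, 0 after adjustment, 2 with no fold limit, 0 with array weights, 2 with a variance trend and 1 to 3 with 1 array left out. Over all genes the AGED count was 832, against 1002 by the t-test without adjustment and 46 after it. It was 730 with array weights, 858 with a variance trend and 615 to 1242 with 1 array left out.

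For the neutrophil pathway the male count (1) was 3 under normexp, 4 by the methods' t-test without adjustment and 0 with it, 0 with the males fitted alone, 2 with array weights and 0 to 3 with 1 array left out. Over all genes the male count was 753 under normexp, 496 by the t-test without adjustment and 259 with array weights. The female count (0) was 6 by the methods' t-test without adjustment, 4 with array weights and 0 to 2 with 1 array left out. Over all genes the female count was 393 by that t-test and 200 with array weights. For the other S100 genes the male count (0) was 1 with no fold limit (S100a13).

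Signs turned in these cases. The male change of Csf3r was 0.11 under normexp and its female change -0.0030 under quantile normalization. The male change of Cxcr2 was 0.22 under normexp, 0.31 with a floor on low signals, 0.25 without MAT male replicate 2 and 0.47 without AGED male replicate 2, and with 1 array left out it ranged from -0.35 to 0.47. The male changes of S100a9 (2.71 to 3.50), S100a8 (1.33 to 2.74) and Lcn2 (0.83 to 1.22) kept their sign under every alternative run. All of them lost their call by the methods' t-test after adjustment and with the males fitted alone, a setting that was reported for males only. S100a8 also lost its call without MAT male replicate 3 or 4. Lcn2 also lost its call with median scaling and without MAT male replicate 1, 3 or 4 or AGED male replicate 3. The cause of these shifts was not tested.

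Replicate numbers did not pair the arrays, since same-numbered MAT and AGED arrays had correlations of deviations from -0.14 to 0.07 in males and from -0.15 to 0.06 in females. With a replicate block the member counts were 3 in males and 0 in females, and the pathway count in males was 0. Over all genes the counts in that run were 183 in males and 3 in females.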
